A study of Mus musculus with 3 samples.

Results

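The Nanog-high cells of replicate 2 are the mouse embryonic stem (ES) cells of that replicate with the highest Nanog mRNA. They were the top 25% of cells by Nanog within each condition, among wells with more than 2600 detected genes. Members were chosen by this measured Nanog level alone, given as CPM, the count of a gene's unique molecular identifiers (UMIs, 1 per captured mRNA molecule) scaled to a fixed total over all mouse genes. This gave 166 Nanog-high cells, 93 from control and 73 from auxin-treated plates, of 661 kept cells in replicate 2 and 1335 kept cells in the series. They were set beside the cells of the same condition with 0 Nanog UMIs, called Nanog-0 here, of which there were 127 in control and 148 in auxin. Nanog chose both classes, so its difference between them is no result, and in replicate 2 every other gene is described without a test. The classes were tested in replicates 1 and 3, which the choice of members did not use. Auxin and control were tested over the Nanog-high cells of all 3 replicates, the members among them.

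Smart-SCRB, a plate-based single-cell RNA assay with UMIs, was used on JM8.N4 mouse ES cells of the C57BL/6N strain in which CRISPR/Cas9 had fused the cohesin subunit RAD21 to an auxin-inducible degron (AID). Control and auxin cells alike carried RAD21-AID and grew without feeders in serum with LIF and the 2i inhibitors PD0325901 (1 μM) and CHIR99021 (3 μM). Auxin cells also received 500 μM indole-3-acetic acid for 6 h, which removes the RAD21 protein, so that Rad21 mRNA does not check the treatment. Each of 3 replicates held a control and an auxin culture of this engineered line, and in replicate 2 each condition filled 4 plates. The deposited annotation names the 8 plates of replicate 2 separately, nothing says whether they came from separate cultures, and they are treated here as 1 culture per condition and not as independent replicates. In it 1 well of the first auxin plate, a Nanog-0 cell, bears the name of another auxin plate, which leaves its condition the same.

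Nanog is a homeodomain transcription factor of the pluripotent epiblast, and its mRNA and protein vary between ES cells in one dish. Naive pluripotency, the state of the preimplantation epiblast, is marked by Klf2, Klf4, Klf5, Esrrb, Tfcp2l1, Tbx3 and Prdm14. In the formative and primed states that follow, Otx2, Pou3f1, Fgf5, Lef1 and the DNA methyltransferases Dnmt3a and Dnmt3b rise. MEK inhibition by PD0325901 and GSK3 inhibition by CHIR99021 hold ES cells in the naive state. The Nanog gene (ENSMUSG00000012396) lies on the plus strand at chr6:122707489-122714633 of mm10.

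The label "high" held only within replicate 2. Summed over the Nanog-high cells of a plate, Nanog stood at 138, 156, 136 and 140.2 CPM in the 4 control plates and at 101, 171, 86.3 and 105 CPM in the 4 auxin plates. The median Nanog-high cell had 123 CPM in control and 90.5 CPM in auxin. In replicate 1 the median of all kept cells was 433 CPM in control and 505 CPM in auxin. There, 155 of 168 control cells (92.3%) and 166 of 169 auxin cells (98.2%) lay above the median Nanog-high cell of replicate 2. None of the 93 control members and 1 of the 73 auxin members exceeded the replicate 1 median. That auxin cell, with 229 Nanog UMIs and 1079 CPM, was far above the next highest auxin member at 324 CPM. It belonged to the second auxin plate, whose 171 CPM includes it. At the edge of the class, the lowest control member had 80.9 CPM and the highest control cell outside it 80.6 CPM. In auxin the corresponding values were 43.7 and 43.1 CPM, so the class has no gap at its edge and began at a lower level in auxin.

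**Figure D1:**
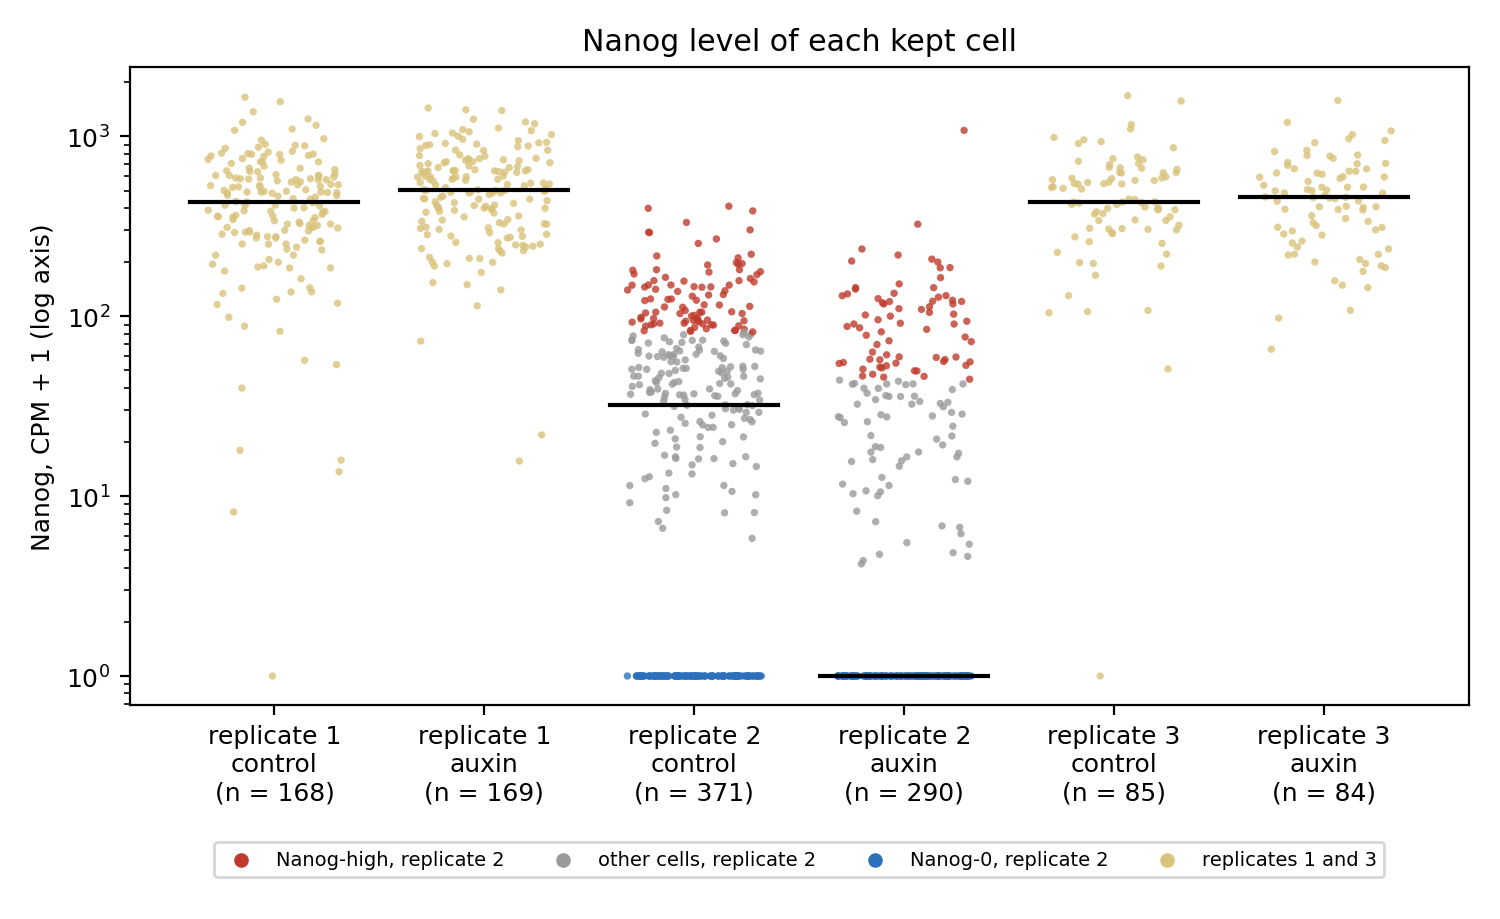
Nanog level of every kept cell outside the 168 cells of unsettled replicate 3 plates, as CPM plus 1 on a log axis, by replicate and condition, with black lines at the medians. The Nanog-high cells of replicate 2 (red) mostly lie below the medians of replicates 1 and 3, which are 433 and 505 CPM in replicate 1, and the Nanog-0 cells (blue) lie at the bottom of the axis.

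Cells without a Nanog UMI were frequent in replicate 2 alone. They made up 34.2% of control cells (127 of 371; exact 95% binomial interval 29.4 to 39.3%) and 51.0% of auxin cells (148 of 290; 45.1 to 56.9%). In replicate 1 the numbers were 1 of 168 control cells (0.595%) and 0 of 169 auxin cells, which allows a share of up to 1.78% when the limit is set at 3 counts of the total, and 2.16% by the exact binomial interval. In replicate 3 they were 1 of 85 (1.18%) and 0 of 84, which allows up to 3.57% and 4.30% in the same way. The auxin share minus the control share was −0.595 percentage points in replicate 1, 16.8 in replicate 2 and −1.18 in replicate 3. Intervals and limits of this kind cover counting error only.

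The classes of replicate 2 also differed in depth. The median Nanog-high cell held 151541 UMIs in control and 205441 in auxin, and the median Nanog-0 cell 83714 and 141401. Cells under 50000 UMIs were 5.38% of control and 4.11% of auxin members, against 42.5% and 20.3% of Nanog-0 cells. In the third and the fourth control plate the median Nanog-0 cell held only 38865 and 52630 UMIs. A count of 0 in the median control Nanog-0 cell allows up to 35.8 CPM of Nanog, below the class edge of 80.9 CPM but near the 37.6 CPM of the median control cell in neither class. Mitochondrial reads were 2.25% and 2.10% of counts in Nanog-high cells and 2.46% and 2.03% in Nanog-0 cells, for control and auxin. Depth moved with the classes throughout, and its part in the differences was not tested. Counts were pooled over the cells of a class, and values in cells with at least 100000 UMIs are given beside several of the results.

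Of 12 genes of naive pluripotency, 8 reached 10 CPM in a class of replicate 2. Of these, 1 gene, Tcl1, was higher in Nanog-high cells in all 8 plates, as were 1.47% of all genes at that level. Tcl1 reached 10 CPM through the Nanog-high class alone, so its pooled level had to be higher there. In the control plates 4 of the 8, Klf2, Dppa3, Nr5a2 and Tcl1, were higher without overlap between the classes, as were 2.48% of all genes at that level. In the auxin plates 0 were, against 2.62% of all genes. The difference between conditions was not tested. Klf2, a Krüppel-like factor of the naive network, stood at 488, 270.3, 234 and 289.9 CPM in the Nanog-high cells of the 4 control plates and at 157, 103, 50.0 and 84.8 CPM in their Nanog-0 cells. Every control plate sum of Nanog-high cells was above every one of Nanog-0 cells. In the auxin plates Klf2 was lower, at 159, 93.4, 142 and 135 CPM in Nanog-high and 67.5, 49.4, 145 and 61.7 CPM in Nanog-0 cells, and there the classes overlapped. Its log2 ratio, with 1 CPM added to each value, was 1.74 ± 0.35 in control and 0.80 ± 0.57 in auxin (SD over 4 plates each).

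Nr5a2, an orphan nuclear receptor that binds regulatory DNA of pluripotency genes, was at 44.5, 37.9, 24.5 and 29.0 CPM in control Nanog-high and at 13.0, 1.9, 13.5 and 13.5 CPM in Nanog-0 cells. Prdm14, which represses Fgf signalling and DNA methyltransferases in naive cells, stood at 21.1, 11.4, 11.2 and 10.6 CPM in control Nanog-high and at 0.55, 1.6, 0.41 and 0.75 CPM in Nanog-0 cells. Neither gene overlapped between the classes in control plates, and both did in auxin plates. Tcl1, a cofactor of AKT kinase, was the naive gene that was higher in all 8 plates. It was at 15.4, 25.6, 11.2 and 19.1 CPM in control Nanog-high cells and between 0 and 3.3 CPM in Nanog-0 cells. In auxin it was at 5.9, 2.6, 26.8 and 12.1 CPM against 0.32 to 6.5 CPM.

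The 8 naive genes at 10 CPM had a higher pooled level in Nanog-high cells in control and in auxin, as did 26.9% of all genes at that level. Their median log2 ratio was 1.16 in control and 0.81 in auxin, where the median over all genes at that level was −0.01 and −0.03. A gene that reached 10 CPM only through the Nanog-high class had to be higher there, so this count is a description. Nr0b1, Klf5, Dppa3 and Esrrb had pooled log2 ratios of 1.23, 1.10, 1.07 and 0.88, each higher in 6 or 7 of 8 plates. That of Esrrb was 0.51 with every cell thinned to 20000 UMIs, 0.27 with the mean of CPM per cell and 1.32 in cells of at least 100000 UMIs, and that of Klf5 was 0.66 after thinning. Zfp42 was nearest to even, at 0.43. Pooled over both conditions, the median ratio of the 8 genes was 1.16. It was 1.67 in the top 10% of Nanog cells, 1.30 in cells of at least 100000 UMIs and 0.78 with every cell thinned to 20000 UMIs.

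Of the other naive genes, Prdm14 did not reach 10 CPM in a class pooled over both conditions, and Klf4, Tfcp2l1 and Tbx3 stayed at or under 5.3 CPM in both classes when pooled over the plates of a condition. Klf4, one of the reprogramming factors, was at 4.5, 9.2, 1.2 and 2.5 CPM in the control Nanog-high cells and at 0, 0.32, 1.0 and 0 CPM in the auxin ones. Tfcp2l1, a factor that sustains ES cell self-renewal, was at 5.3 CPM in control and 1.7 CPM in auxin Nanog-high cells, and Tbx3 at 2.2 and 3.7 CPM. In auxin the pooled ratios of Klf4 and Tfcp2l1 were −1.44 and −0.59. Of the marker genes of the class, Esrrb stood at 21.9, 22.1, 34.8 and 16.9 CPM in control Nanog-high cells and at 12.7, 5.1, 16.0 and 22.1 CPM in Nanog-0 cells, with overlap. For Klf4, too, the control classes overlapped, so that of the class markers Nanog alone, which chose the classes, separated them.

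**Figure D2:**
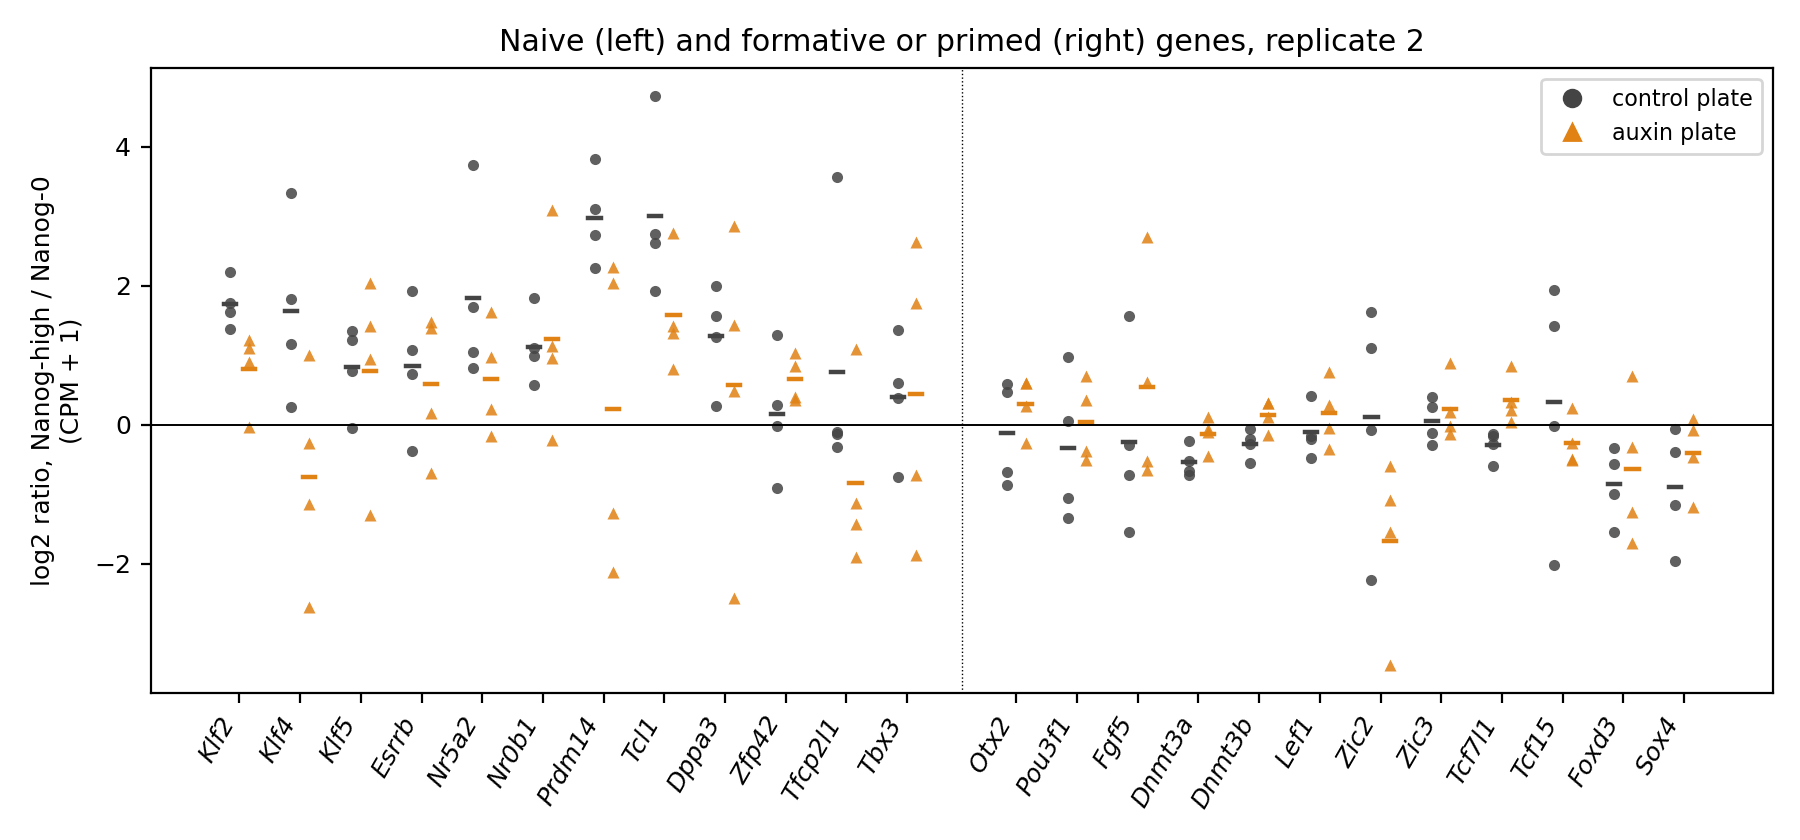
Log2 ratio of CPM plus 1 between Nanog-high and Nanog-0 cells for 12 naive genes (left) and 12 formative or primed genes (right) in each plate of replicate 2. Circles are control and triangles auxin plates, and short lines are means over 4 plates. Klf2 and Tcl1 lie above 0 in every control plate, at means of 1.74 and 3.01, while Otx2 scatters around 0.

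Of 12 formative and primed genes, 10 reached 10 CPM. In control 8 of these had a pooled ratio below 0, against 51.8% of all genes, and in auxin 7 had one above 0, against 45.0% of all genes. Otx2, a homeodomain factor that directs exit from naive pluripotency, was at 206, 132, 156 and 209 CPM in the Nanog-high cells of the control plates and at 147, 241, 249 and 139 CPM in the Nanog-0 cells. In auxin it was at 72.8, 90.9, 194 and 132 CPM against 87.7, 59.5, 127 and 109 CPM. The classes overlapped in both conditions. Lef1, a partner of β-catenin, was at 290.3 and 304 CPM in control and at 323 and 298 CPM in auxin (Nanog-high and Nanog-0). Of the 10 genes, 0 were higher or lower in all 8 plates, where 1.47% of all genes were higher and 2.46% lower. Their median log2 ratio was −0.25 in control and 0.14 in auxin. Pooled over conditions it was 0.04, and −0.11 in cells of at least 100000 UMIs.

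In the control plates 2 of the 10 genes, Dnmt3a and Sox4, were lower in Nanog-high cells without overlap, as were 2.86% of all genes, and in the auxin plates 0 were, against 4.21% of all genes. The de novo methyltransferase Dnmt3a was at 443, 480.3, 525 and 553 CPM in Nanog-high and at 632, 795, 828 and 652 CPM in Nanog-0 cells. The log2 ratio was −0.53 ± 0.22 in control and −0.13 ± 0.23 in auxin (SD over 4 plates each). Sox4, a SOX family transcription factor, was at 34.3, 39.2, 20.5 and 28.4 CPM against 45.4, 40.6, 82.4 and 64.5 CPM in control. The pooled control ratio was −0.84 for Sox4, −0.57 for Fgf5 and −0.53 for Dnmt3a. Dnmt3b, the second de novo enzyme, had ratios of −0.27 ± 0.20 and 0.15 ± 0.22. Among 8 genes of DNA methylation and its removal, 0 were higher or lower in all 8 plates, where 1.47% of all genes were higher and 2.46% lower. Their median log2 ratio was 0.04.

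Among 12 genes of general pluripotency, 10 reached 10 CPM and 4 were higher in all 8 plates, as were 1.47% of all genes at that level. Tdgf1, which encodes the Nodal co-receptor Cripto, was at 811, 752, 690.1 and 851 CPM in control Nanog-high and at 399, 366, 484 and 506 CPM in Nanog-0 cells, and its pooled log2 ratio was 0.84. Fgf4, the fibroblast growth factor that ES cells themselves release, had a ratio of 0.80, Dppa5a 0.42 and Gdf3 0.36. Sall4, Dppa2, Dppa4, Utf1 and L1td1 lay between −0.10 and 0.18. Sox2 was listed at 0 in every class of replicate 2 and Pou5f1 at 7.0 and 3.9 CPM in control and auxin Nanog-high cells, although both genes are used by all pluripotent cells, and neither value is read as a level of expression. In replicates 2 and 3, 179 genes were at 0 in every kept cell although they reached 10 CPM in replicate 1.

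The Nanog-high cells were not uniform. A score per cell, the mean log2(CPM + 1) of the 12 naive genes minus that of the 12 formative or primed genes, had a median of −1.83 in control members, with an SD of 2.09 over cells and a range from −5.03 to 4.23. The SD was 1.55 in control Nanog-0 cells and 1.54 in the remaining control cells. A score above 0 was found in 28 of 93 control members (30.1%), in 9 of 127 Nanog-0 cells (7.09%) and in 10 of 151 remaining cells (6.62%). By plate these were 8 of 31, 8 of 22, 7 of 21 and 5 of 19 control members, against 5 of 32, 0 of 28, 2 of 33 and 2 of 34 Nanog-0 cells. Scores form a continuous range, and 18 of the 93 control members lay within 0.5 of the limit of 0. Members above 0 had a median Nanog level of 148 CPM and the others 113 CPM, with median depths of 143922 and 159925 UMIs.

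In auxin, scores above 0 were no more frequent in members than in Nanog-0 cells. A score above 0 was found in 6 of 73 members (8.22%) and in 16 of 148 Nanog-0 cells (10.8%). The median score was −2.78 in auxin Nanog-high and −2.26 in auxin Nanog-0 cells, so that it was lower in the Nanog-high class. The naive part of the score had medians of 1.42 and 1.14 in these classes, and the formative part 4.15 and 3.26, so both parts were higher in the deeper Nanog-high cells. With every cell thinned to 20000 UMIs, where the upper class takes in every cell with a Nanog UMI and grows to 165 control cells, 31 control cells (18.8%) in that class and 14 of 198 Nanog-0 cells (7.07%) had a score above 0. The thinned auxin shares were 8.43% and 9.28%. The difference between conditions in this share rests on 1 culture per condition and was not tested.

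Across all genes at 10 CPM or more, 32 were at least 1.5-fold higher in Nanog-high cells with the same direction in all 8 plates (0.346% of 9242 genes), and 130 were that much lower (1.41%). The ratios that define this count are pooled over both conditions. In cells of at least 100000 UMIs, 40 genes were higher (0.444% of 9000) and 29 were lower (0.322%). Without the 1.5-fold limit, 136 genes were higher (1.47%) and 227 lower (2.46%) in all 8 plates. Among the 10 largest ratios with 8 of 8 plates were those of Calcoco2, Tcl1, Jam2, Fam169b, Lefty1, Porcn, 4930461G14Rik, Mylpf and Fam69b.

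Calcoco2, which encodes the autophagy receptor NDP52, led the list. It stood at 13.9, 61.9, 28.6 and 137 CPM in control Nanog-high and at 4.2, 6.3, 6.6 and 22.9 CPM in Nanog-0 cells. In auxin it was at 9.7, 211, 45.9 and 58.0 CPM against 0.58, 5.2, 21.8 and 5.0 CPM. The pooled log2 ratio was 2.89, against 4.00 in the top 10% of Nanog cells, and its level differed widely between plates. Jam2, a junctional adhesion molecule, had a ratio of 1.98 and Fam169b one of 1.72. With every cell thinned to 20000 UMIs, the ratio of Fam169b was 0.76, that of Lefty1 0.74 in place of 1.67, and that of 4930461G14Rik 0.69 in place of 1.44. Calcoco2 was then at 1.82, Tcl1 at 1.54 and Jam2 at 1.94.

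Lefty1, a secreted Nodal inhibitor and Nodal target, was at 521, 220.1, 960 and 869 CPM in control Nanog-high cells and at 130.1, 41.2, 148 and 205 CPM in Nanog-0 cells, without overlap. In auxin it was at 196, 975, 691 and 289.8 CPM against 169, 218, 394 and 82.6 CPM. Porcn, the acyltransferase that Wnt ligands need for release, was at 42.0 to 75.6 CPM in control and 23.4 to 61.9 CPM in auxin Nanog-high cells, above the 6.3 to 40.4 and 10.1 to 19.4 CPM of the Nanog-0 cells, and did not overlap in either condition. Mylpf, the fast skeletal myosin regulatory light chain, had a ratio of 1.37.

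The 10 smallest ratios with 8 of 8 plates were those of Adra1b, Mir6236, Hs3st4, Gm23935, Synm, Fbxo47, Efr3b, Elf1, Atxn1 and Plxdc2. Adra1b, an adrenergic receptor gene, was at 665, 100.2, 3217 and 3902 CPM in the Nanog-0 cells of the control plates, against 194, 73.6, 109 and 227 CPM in Nanog-high cells, and at most 12.2 CPM in all auxin sums. The highest values came from the plates with the shallowest Nanog-0 cells. In cells of at least 100000 UMIs its pooled log2 ratio was 0.44, in place of −3.01, and that of Gm23935 was −0.39 in place of −1.86. Mir6236 rested on the 980 CPM of Nanog-0 cells in the second auxin plate, where the other Nanog-0 sums were between 28.0 and 58.7 CPM. Hs3st4, a heparan sulfate sulfotransferase gene, kept its ratio at depth, with −2.40 over all cells and −2.26 in cells of at least 100000 UMIs. It was between 0 and 7.1 CPM in Nanog-high and between 6.3 and 33.3 CPM in Nanog-0 cells.

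In replicate 2 the median ratio of genes beside Nanog on chromosome 6 was near 0. Of 126 genes whose start lies within 2 Mb of that of Nanog, 15 reached 10 CPM, and their median log2 ratio was 0.03. A ratio above 0 was found for 9 of the 15, against 44.5% of all genes. In all 8 plates 2 of the 15 were higher, as were 1.47% of all genes, and 0 were lower. The highest and lowest 25% of cells by Nanog were compared in replicates 1 and 3, where 25 of the 126 genes were tested. Their median was 0.32, with 18 above 0, against a median of 0.01 over all genes, and 0 passed the test. Slc2a3 (chr6:122727809-122801640, minus strand), which encodes the glucose transporter GLUT3 and lies on the 3′ side of Nanog, was at 435, 365, 477 and 379 CPM in control Nanog-high and at 175, 161, 225 and 229 CPM in Nanog-0 cells. Its pooled log2 ratio was 0.93 and it was higher in all 8 plates. Gdf3 (chr6:122605403-122610087, minus strand) was also higher in all 8 plates and Dppa3 (chr6:122626410-122630272, plus strand) in 7, while Phc1 and Bid had ratios of −0.01 and 0.00.

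Among 8 targets of p53, 2 were lower in Nanog-high cells in all 8 plates, as were 2.46% of all genes, and 0 were higher. Mdm2, the ubiquitin ligase that limits p53, was at 234, 189, 202 and 152 CPM in auxin Nanog-high and at 501, 356, 662 and 396 CPM in auxin Nanog-0 cells, without overlap. In auxin 4 of the 8 targets were lower without overlap, as were 4.21% of all genes. In control Mdm2 was at 74.9, 82.4, 101 and 88.1 CPM against 245, 53.9, 149.6 and 153 CPM, with overlap. Trp53inp1 and Ccng1 were the targets that were lower in all 8 plates, with pooled log2 ratios of −0.75 and −0.49. A pooled ratio below 0 was found for 7 of the 8 targets and for 55.5% of all genes at 10 CPM or more. The median of the targets was −0.12 in control, −0.38 in auxin and −0.35 pooled, against −0.03 over all genes. In cells of at least 100000 UMIs it was −0.33. Bax was at 0.09.

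Cell cycle genes had small ratios in replicate 2. A pooled ratio above 0 was found for 11 of 12 G2/M genes, 10 of 12 G1/S genes and 44.5% of all genes. The median log2 ratio was 0.19 over the G2/M and 0.07 over the G1/S genes, against −0.03 over all genes. In cells of at least 100000 UMIs, 9 of the G2/M and 6 of the G1/S genes were above 0, against 46.8% of all genes, with medians of 0.20 and 0.02. In replicates 1 and 3 the G2/M median was 0.31 and the G1/S median 0.05, against 0.01 over all genes. There 10 of 12 G2/M and 8 of 12 G1/S genes were above 0, and 0 of either list passed the test. Ccnb1, Cdk1 and Cdc6 were higher in all 8 plates at 0.37, 0.35 and 0.36, while Mki67 was lower in all 8 at −0.22, where 1.47% and 2.46% of all genes were higher and lower in all 8. Feedback genes of FGF and ERK signalling had a median of −0.27, those of LIF and STAT3 −0.21, and BMP and Id genes 0.48, with 0 genes of these lists the same way in all 8 plates. In cells of at least 100000 UMIs the FGF and ERK median was −0.07 and the LIF and STAT3 median 0.03. The BMP and Id median was 0.62 there, −0.04 in the top 10% of Nanog cells and −0.68 in replicates 1 and 3, where 1 of 7 genes tested was above 0. Of 10 Wnt targets only Znrf3 reached 10 CPM. The 11 cohesin genes had a median of −0.03, and Rad21 itself was at 34.8 and 33.2 CPM in control and auxin Nanog-high cells. Stress genes had a median of 0.01.

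Markers of other cell types stayed low in the Nanog-high cells. The summed level per plate of 10 primitive endoderm genes was 15.5 to 56.4 CPM in Nanog-high and 31.4 to 66.5 CPM in Nanog-0 cells. For 8 mesendoderm genes it was 1.26 to 27.1 against 3.49 to 34.8 CPM, and for 8 trophectoderm genes 16.8 to 70.2 against 17.3 to 135 CPM. The 8 neural genes summed to 63.4 to 94.8 against 69.0 to 102 CPM. The 8 fibroblast genes summed to 72.4 to 171 against 53.3 to 165 CPM, mostly Vim, which ES cells also express. Gata6, Cdx2, T and Col1a1 were under 1 CPM, Sox1 was at 0, and 6 of 7 genes of the two-cell-like state were at 0. As with Sox2, a listed 0 is not read here as absence of expression. None of these lists had a gene that moved 1.5-fold in all 8 plates, where 0.346% of all genes were that much higher and 1.41% lower.

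The same question was then tested where the members had not been chosen, in replicates 1 and 3. Because these held at most 1 Nanog-0 cell per culture, the highest 25% of cells by Nanog were compared with the lowest 25%, 85 against 85 cells in replicate 1 and 43 against 43 in replicate 3. Depth moved with these classes too. In replicate 1 the medians were 119122 against 83769 UMIs in control and 119028 against 102982 in auxin. In replicate 3, cells under 50000 UMIs were 4.55% against 22.7% in control and 9.52% against 23.8% in auxin. The part of depth was not tested. Counts were summed per class and culture and fitted with edgeR, with the culture as a block. Apart from Nanog, 5 genes were higher (0.0379% of 13191) and 3 lower (0.0227%) at an adjusted p under 0.05, and 1035 genes (7.85%) had an unadjusted p under 0.05. The p-values measure the spread between 4 cultures. In simulated sums at a set dispersion, this fit recovered 60.5% of 2-fold changes.

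Of the 10 genes most raised in replicate 2, Calcoco2 also rose here. It was at 996 and 899 CPM in the highest class of replicate 1 (control and auxin) and at 753 and 490 CPM in the lowest. In replicate 3 it was at 1235 and 1355 CPM against 612 and 754 CPM. The log2 fold change was 0.76 ± 0.10 (SE; edgeR, adjusted p = 0.019). These levels were far above the 57.6 and 74.6 CPM of the Nanog-high cells of replicate 2, and the ratio was smaller. Over the alternatives the adjusted p of Calcoco2 ran from 4.8e-14 to 1, and with all 3 replicates it was 0.25 (edgeR).

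The other 4 genes that rose were Sgk1, a serum- and glucocorticoid-regulated kinase (0.87 ± 0.13), Pttg1 or securin, the separase inhibitor that holds sister chromatids together until anaphase (0.69 ± 0.10), the phosphatase Dusp14 (1.14 ± 0.17) and Olfr1459 (1.97 ± 0.29), of the olfactory receptor family whose copies can share reads, each with edgeR adjusted p = 0.024. In replicate 2, Sgk1 was higher in 7 of 8 plates with a pooled log2 ratio of 0.88 and Pttg1 in 6 of 8 with 0.27, whereas Dusp14 was at −0.17 and Olfr1459 under 1 CPM. Apoe fell by 0.74 ± 0.08 (adjusted p = 0.0021), from 1947 to 1293 CPM in control cells of replicate 1. Ldhb fell by 0.84 ± 0.14 and Dppa1 by 6.48 ± 1.05 (edgeR adjusted p = 0.045 for both). Dppa1 fell from 81.8, 12.8 and 43.1 CPM to at most 0.20 CPM in 3 cultures, and in control cells of replicate 3 was at 1.7 CPM in the highest and 0.71 CPM in the lowest class. In replicate 2, Apoe had a ratio of −0.09 and Ldhb of 0.15.

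None of the 12 naive genes passed this test in replicates 1 and 3. Prdm14 came nearest, higher in 4 of 4 cultures with a log2 fold change of 0.96 ± 0.17 (edgeR, adjusted p = 0.072). Tbx3 was also higher in 4 of 4, at 0.92 ± 0.18 (edgeR adjusted p = 0.099). Tcl1 stood at 0.14 ± 0.29 (adjusted p = 0.97) and Klf2 at 0.12 ± 0.09 (adjusted p = 0.85). The median over the 12 genes was 0.13, against 0.01 over all genes tested. Of the 8 formative or primed genes tested, 0 passed. Lef1 and Dnmt3a were lower in 4 of 4 cultures at −2.30 ± 0.82 and −1.08 ± 0.32 (adjusted p = 0.49 and 0.36). Lefty1, raised in replicate 2, was higher in 1 of 4 cultures, with −0.49 ± 0.31 (adjusted p = 0.79). Mylpf went the other way in 4 of 4 cultures, at −0.53 ± 0.09 (adjusted p = 0.055). All 8 calls were lost when replicate 2 was added, when the block was left out, and in cells of at least 100000 UMIs. That limit lies above the median depth of every replicate 3 class, so it also removes most cells of replicate 3.

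**Figure D3:**
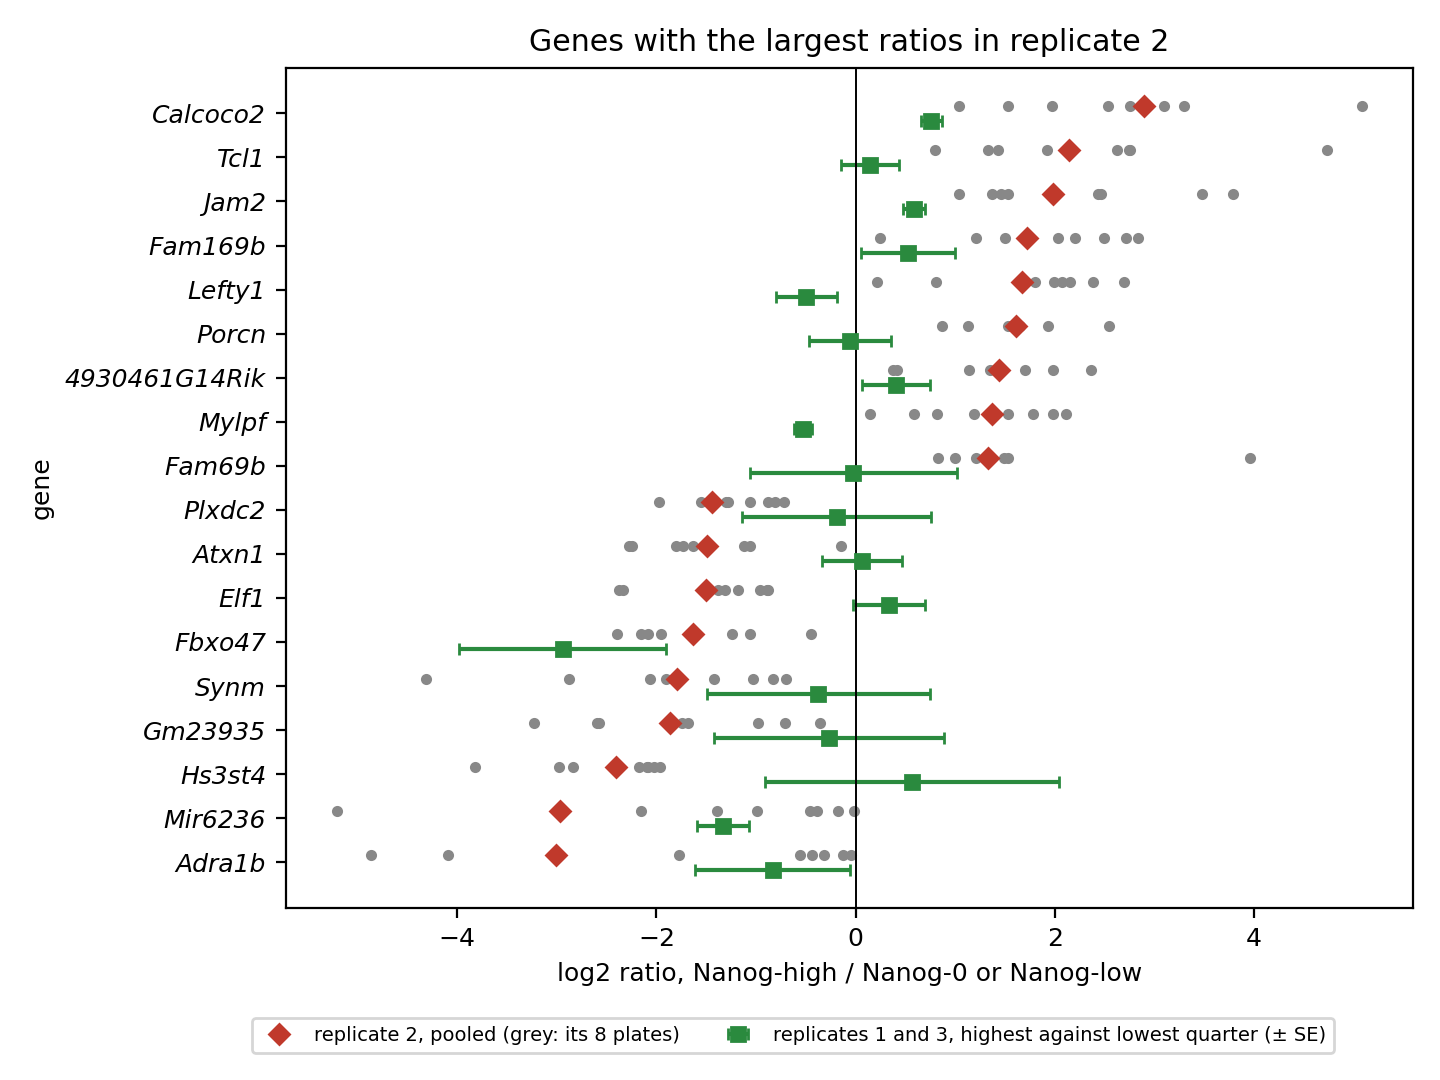
Log2 ratios of 18 of the 20 genes with the largest and smallest ratios in replicate 2 (among those not drawn, Efr3b was not tested in replicates 1 and 3). Red diamonds are pooled values and grey points the 8 plates of replicate 2, and green squares are edgeR fold changes ± SE in replicates 1 and 3. Calcoco2 lies to the right in both, at 2.89 and 0.76, and Mylpf on opposite sides, at 1.37 and −0.53.

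To ask whether the Nanog-high cells resembled naive-like cells of replicate 1, they were compared with the top 25% of replicate 1 cells by the naive score, 42 control and 43 auxin cells. Genes of the score and Nanog were left out, and the distance was the root mean square of log2 ratios over 9974 genes in control and 9942 in auxin. The Nanog-high cells were at a distance of 1.73 from naive-like cells in control and 1.69 in auxin, and the Nanog-0 cells at 1.87 and 1.77. The Nanog-high cells were thus nearer by 0.138 and 0.0836, which compares with an SD over plates of 0.0773 and 0.0140. Of the 2506 control genes at least 2-fold lower in naive-like cells than in the rest of replicate 2, 30.5% were higher in Nanog-high than in Nanog-0 cells, against 47.1% of all genes. Of the 1140 control genes at least 2-fold higher in naive-like cells, 50.7% were. In auxin the shares were 32.7% of 2499 lower genes, 42.0% of 1107 higher genes and 44.3% of all. The share thus departed further from that of all genes at the genes lower in naive-like cells than at the genes higher there. By comparison, Nanog-high and Nanog-0 cells of replicate 2 were 0.433 and 0.427 apart. At least a 2-fold difference separated the Nanog-high and naive-like cells at 36.4% of genes in control and 35.4% in auxin, and the Nanog-high and Nanog-0 cells at 3.74% and 3.71%. Replicates differ in culture, plates and sequencing, which cannot be told apart here, and the classes also differed in depth. The counting program and annotation are not given in the sources used here, so whether replicate 1 was counted like the others was not tested. Beside the 179 genes at 0 in replicates 2 and 3, there were 73 at 0 in replicate 1 that reached 10 CPM in replicate 2. Levels set across replicates, of genes and of distances, carry this limit.

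Named genes of the score, which chose the naive-like cells, are given as a description, with the levels in the other cells of replicate 1. Of the 12 naive genes, 11 in control and 12 in auxin were lower in Nanog-high than in naive-like cells, and the exception was Nr5a2 in control, at 34.6 CPM in Nanog-high and 9.1 CPM in other cells of replicate 1, with a log2 ratio of −0.90 between naive-like and Nanog-high cells. For Klf2 in control that ratio was 0.71. The genes named next were picked for wider gaps. Lef1 was at 290.3 and 323 CPM in Nanog-high cells (control and auxin) and at 0.41 and 1.3 CPM in naive-like and 2.75 and 5.05 CPM in other cells of replicate 1. Dnmt3a was at 497 and 425 CPM against 2.0 and 7.3 CPM, Dnmt3b at 498 and 525 CPM against 22.3 and 5.0 CPM, and Otx2 at 178 and 118 CPM against 12.6 and 6.5 CPM. In the other direction, Tfcp2l1 was at 5.3 and 1.7 CPM in Nanog-high cells against 254 and 259 CPM, Klf4 at 4.3 and 0.28 CPM against 161 and 103 CPM, and Tbx3 at 2.2 and 3.7 CPM against 123 and 104 CPM. In the other cells of replicate 1, Dnmt3a was at 15.0 and 21.5 CPM, Dnmt3b at 34.5 and 24.3 CPM and Otx2 at 14.1 and 12.4 CPM. There Tfcp2l1 was at 247 and 232 CPM, Klf4 at 133 and 51.9 CPM and Tbx3 at 107 and 83.1 CPM. For each of these genes the Nanog-high cells lay outside the range between both groups of replicate 1 cells.

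The step from Nanog-0 to Nanog-high cells was also expressed as a share of the log2 distance to naive-like cells. Since these genes chose the naive-like cells, the distance was set in part by that choice: Tcl1 was at 124 CPM in naive-like and 40.0 CPM in other control cells of replicate 1, and Dppa3 at 98.5 and 40.6 CPM. In control the step covered 69.8% for Klf2, 53.2% for Nr0b1, 50.4% for Tcl1 and 48.6% for Prdm14, but 10.7% for Tfcp2l1 and 6.21% for Tbx3. The median was 33.3% over 11 naive genes in control and 21.4% over 11 in auxin, counting genes at least 2-fold apart between Nanog-0 and naive-like cells, which leaves out Nr5a2 in control and Dppa3 in auxin. For formative or primed genes it was 6.77% over 11 genes in control and −2.47% over 10 in auxin, a negative value being a step away from naive-like cells. By score, 11 of 93 control and 4 of 73 auxin Nanog-high cells lay above the lowest cell of replicate 1, as did 6 of 127 control and 11 of 148 auxin Nanog-0 cells. These were 11.8% and 5.48% of members and 4.72% and 7.43% of Nanog-0 cells. The limit of depth given above for auxin scores applies to these shares too. After thinning they were 18.2% and 6.02% of the upper class and 7.07% and 3.09% of Nanog-0 cells. In replicate 1 all 168 control and 169 auxin cells had a score above 0. The auxin cell with the highest Nanog had a score of 1.75.

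**Figure D4:**
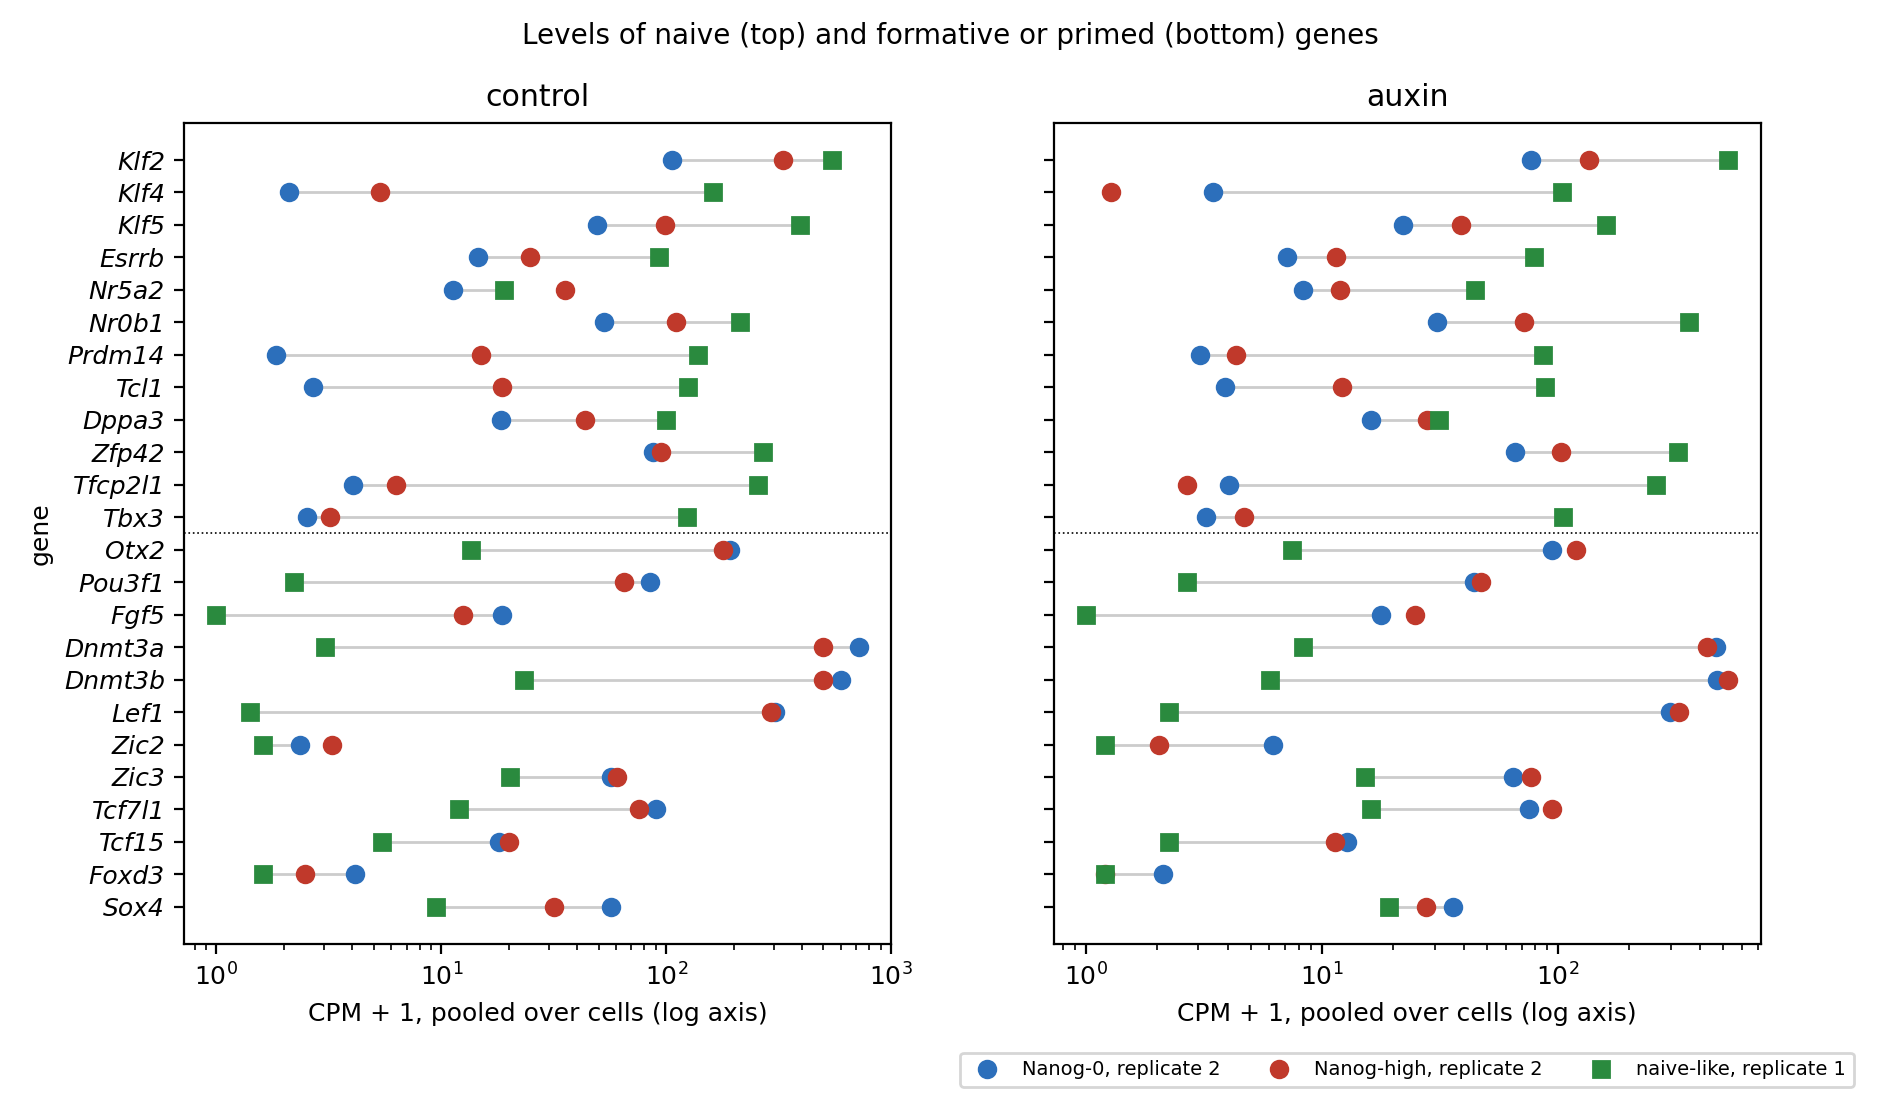
Pooled CPM plus 1, on a log axis, of 12 naive genes (top) and 12 formative or primed genes (bottom) in Nanog-0 cells (blue), Nanog-high cells (red) and naive-like cells of replicate 1 (green squares), for control and auxin. For Lef1 red and blue nearly coincide, at 290.3 and 304 CPM in control, far from green at 0.41 CPM, while Klf2 in control lies nearer to green.

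Whole replicates were compared in the same way. The Nanog-high cells were at a distance of 1.66 in control and 1.62 in auxin from all kept cells of replicate 1. The Nanog-high cells were at a distance of 0.937 in control and 0.966 in auxin from all kept cells of replicate 3, against 1.01 and 0.998 for the Nanog-0 cells. The difference was 0.0688 in control, with a plate SD of 0.0412, and 0.0319 in auxin, within its plate SD of 0.0479. Genes at 0 in every kept cell of a replicate, like the 179 above, count in these distances. Without such genes the distance from the naive-like cells of replicate 1 was 1.56 in control and 1.51 in auxin, in place of 1.73 and 1.69. In replicate 3, Tfcp2l1 was at 299.8 CPM, Lef1 at 12.5 CPM and Dnmt3a at 36.3 CPM in control cells.

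Auxin and control were compared within the highest 25% of Nanog cells of each replicate, 3 sums against 3. In replicate 2, 9 naive genes reached 10 CPM in the members of a condition, and 8 of these, all but Zfp42, stood lower in auxin members, whose class edge of Nanog was itself lower. Of all 9079 genes at that level, 46.2% stood lower in auxin members. Prdm14 reached 10 CPM in control members only and so had to be lower. Klf2 was between 234 and 488 CPM in the control plates and between 93.4 and 159 CPM in the auxin plates, without overlap, as were 4.12% of all genes at 10 CPM or more in that direction. Pooled over plates, Klf5 was at 97.4 CPM in control and 38.0 CPM in auxin members, Nr5a2 at 34.6 and 10.9, Prdm14 at 14.0 and 3.35 and Klf4 at 4.3 and 0.28 CPM. Among the Nanog-0 cells, Klf5 was at 48.3 and 21.1 and Klf2 at 105 and 75.6 CPM. These are values of 1 culture per condition.

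Across the 3 replicates, edgeR called 0 of 13079 genes in either direction, with 42 (0.321%) at an unadjusted p under 0.05. With the replicate as a block it again called 0, of 14785, with 582 (3.94%) at an unadjusted p under 0.05. In simulated sums at a set dispersion, these fits recovered 33% of 2-fold changes without the block and 31.5% with it. Calling 0 genes thus does not exclude changes of that size. DESeq2 with the block called 2 higher (0.0153% of 13079) and 13 lower (0.0994%), with 476 (3.64%) at an unadjusted p under 0.05. Without the block DESeq2 called 0, with 66 (0.505%) at an unadjusted p under 0.05. The DESeq2 calls included the naive genes Klf5, at −1.17 ± 0.18 (adjusted p = 6.3e-08), and Prdm14, at −1.22 ± 0.28 (adjusted p = 0.0080). For Klf5, the highest class of replicates 1, 2 and 3 held 282, 97.4 and 321 CPM in control and 157, 38.0 and 134 CPM in auxin. Under edgeR with the block the value was −1.15 ± 0.15 (adjusted p = 0.095).

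Elf3, an ETS factor of epithelia, and Tdh, the threonine dehydrogenase on which ES cells depend, were the other leading calls. Elf3 was at 240, 21.5 and 191 CPM in control and at 92.5, 7.9 and 65.5 CPM in auxin. Tdh was at 817, 316 and 661 CPM in control and at 507, 172 and 348 CPM in auxin. DESeq2 with the block gave −1.47 ± 0.20 (adjusted p = 1.2e-09) and −0.85 ± 0.13 (adjusted p = 4.0e-08), and edgeR with the block adjusted p = 0.066 and 0.095. Dkk1, a secreted Wnt inhibitor, was at 8.6 and 7.5 CPM in control and at 54.5 and 111 CPM in auxin in replicates 1 and 3, and at 0 in both conditions in the Nanog-high cells of replicate 2 (DESeq2 with the block, adjusted p = 4.9e-07, and edgeR with the block, adjusted p = 0.15). Klf4 was at −1.10 ± 0.46 under edgeR with the block (adjusted p = 0.999). Of the gene lists, naive pluripotency with Klf5 and Prdm14 and the Wnt targets with Dkk1 held calls by DESeq2 with the block, and the other lists held 0.

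**Figure D5:**
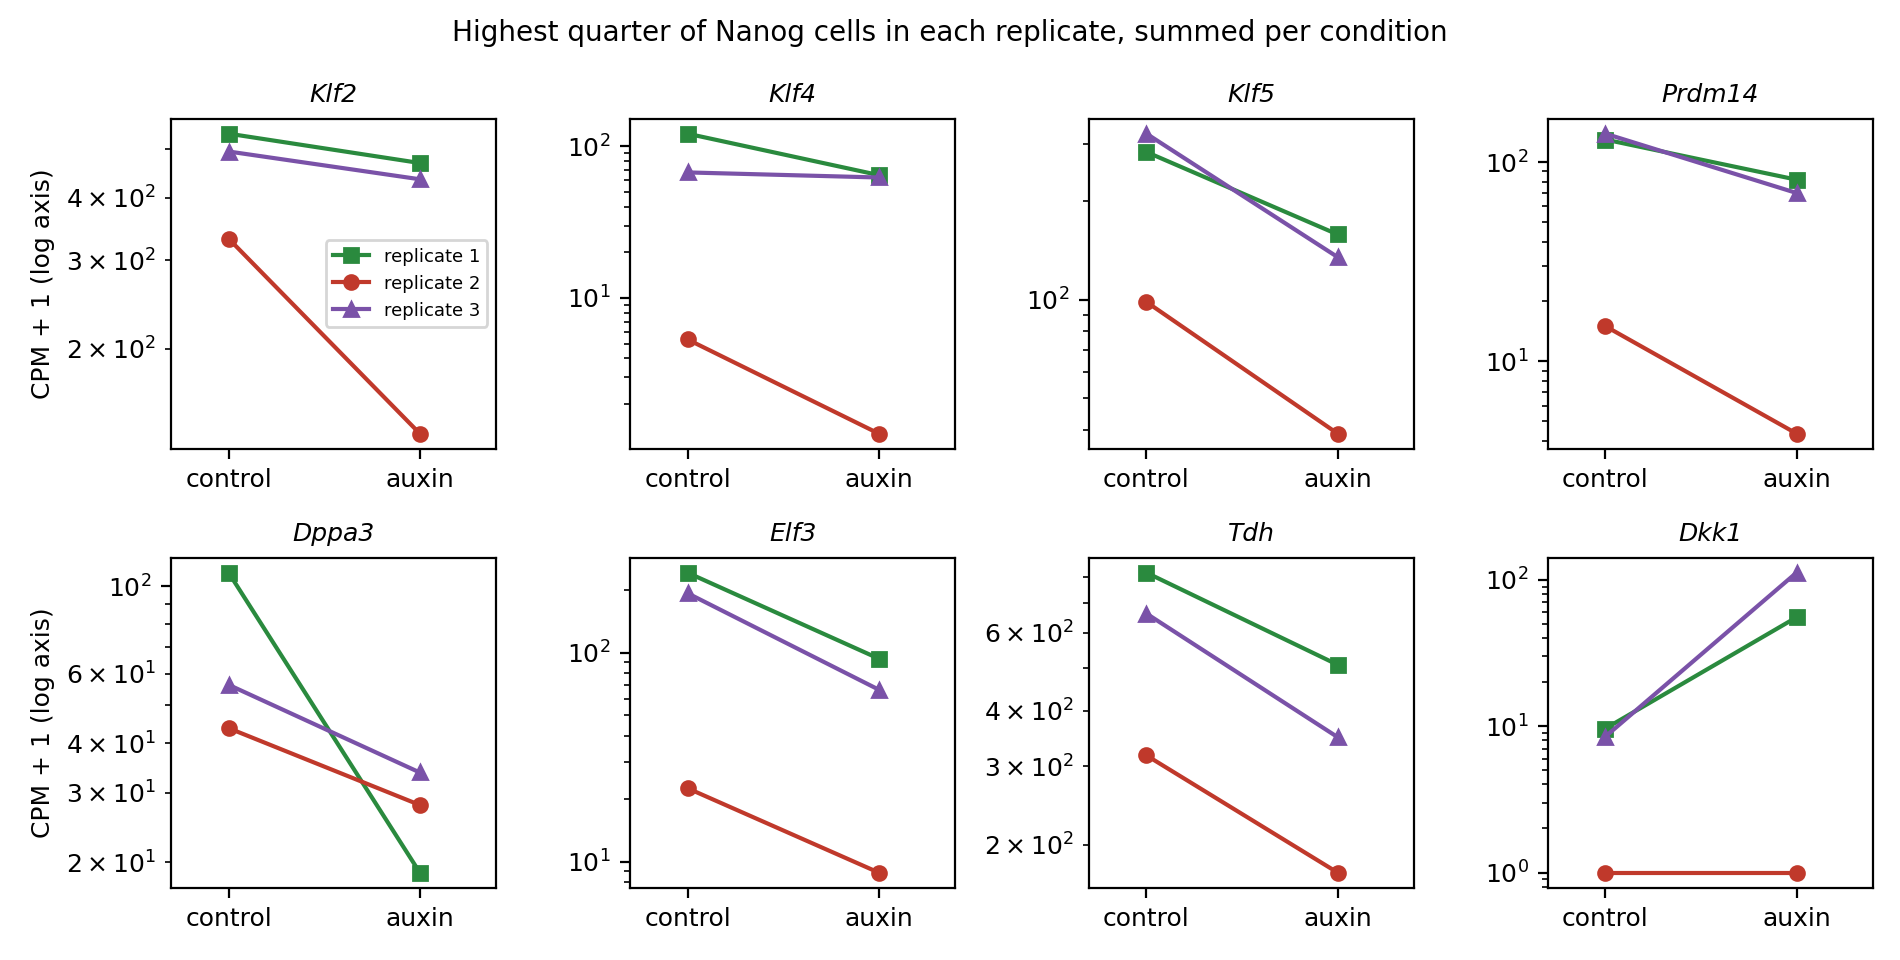
CPM plus 1, on a log axis, of 8 genes in the highest 25% of Nanog cells, summed per condition, in replicates 1 (squares), 2 (circles) and 3 (triangles). Klf5, Elf3 and Tdh were lower in auxin in every replicate, with Klf5 at 97.4 and 38.0 CPM in replicate 2, and Dkk1 was at 0 in replicate 2 and higher in auxin in replicates 1 and 3.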

How the data were processed

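Smart-SCRB was measured in 3 replicates, each a control and an auxin culture. Deposited were, for each gene and well, unnormalized UMI counts, and also detected genes, a percent of counts from ERCC spike-ins and a deposited saturation fraction per plate. Reads were aligned to mm10 per the labels, and the counting program and annotation are not given in the sources used here. Detected genes and count sums recomputed from the counts equalled the deposited values in 1536 of 1536 wells. Wells with more than 2600 detected genes were kept, and no doublet caller was run because cells had been sorted 1 per well. Conditions came from the deposited plate annotation. In replicate 3 that annotation and source values of the study disagree for 2 plates, whose 168 cells were left out of the main values.

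No kept wells had identical counts, and the 96 well barcodes recur in every plate, each a library of its own. CPM used all 52636 mouse genes. Plates held 24144048 to 63465035 reads, and the sums of Nanog-high and Nanog-0 cells per plate held 2440387 to 6300138 UMIs. Plates of a culture, and cells, were not treated as replicates. Ratios added 1 CPM and used genes at 10 CPM or more in a class. Sums per class and culture were tested with edgeR 4.0.16 (TMM scaling, quasi-likelihood test, Benjamini-Hochberg adjustment, threshold 0.05) in R 4.3.3, with DESeq2 1.42.0 as an alternative, and the fits were tested on simulated data. Positions came from GENCODE M21.

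The replicate number pairs the cultures of a replicate: deviations from the group means correlated with 0.773, 0.736 and 0.52 in replicates 1, 2 and 3. Named genes were the class markers, list members, the 10 largest and 10 smallest ratios with 8 of 8 plates in 1 direction, and genes past the threshold in a test, likewise for auxin with Klf4, Klf5 and Dkk1. The members, lists and naming rule were chosen with earlier results of these data known. Of these, 1 gene is not reported here. Alternatives were thinning to 20000 UMIs, other class limits, filters, scalings and tools, and leaving out replicates. The limit of at least 100000 UMIs, replicate 3 as reference, leaving out genes at 0 throughout a replicate, and the block combined with other settings were added after seeing the data.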

Additional observations from a re-analysis of the deposited data

Results flagged for a closer look

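Mylpf was higher in Nanog-high cells of replicate 2 in 8 of 8 plates (log2 ratio 1.37) and lower in the highest Nanog class of replicates 1 and 3 in 4 of 4 cultures (−0.53). Atxn1 was lower in 8 of 8 plates of replicate 2 (−1.50) and higher in 4 of 4 cultures of replicates 1 and 3, though by only 0.06. Both stand out because the cultures of replicate 2 moved against those of replicates 1 and 3. Lin28a, an inhibitor of let-7 maturation, was lower in Nanog-high cells in 4 of 4 control plates (−0.34) and higher in 4 of 4 auxin plates (0.19). Tcf7l1, a repressor of naive genes, behaved likewise, at −0.24 in control and 0.33 in auxin. The share of all genes with this pattern was not counted, so Lin28a and Tcf7l1 have no base rate beside them. In none of these was the difference itself tested, since each gene was picked for its ratio or as 1 of many listed genes and plates of 1 culture are not independent.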

How the results depend on the processing

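In replicate 2 the 32 higher genes became 21 after thinning to 20000 UMIs, 59 for the top 10% of Nanog cells and 69 with the mean of CPM per cell. The 130 lower genes became 84 with more than 4000 detected genes, 81 at 20 CPM or more, 451 with the mean of CPM per cell and 29 in cells of at least 100000 UMIs, where Adra1b reversed to 0.44. In replicates 1 and 3 the 5 higher and 3 lower genes became 0 and 0 with all 3 replicates (1089 at an unadjusted p under 0.05), 0 and 0 in cells of at least 100000 UMIs (388), 65 and 62 without a filter, and 47 and 43 with DESeq2. The number higher was 11 with all 4 plates of replicate 3, and the number lower was 1 with library totals only, 1 for the top 10% of Nanog cells and 7 after thinning. Leaving out a replicate gave 13 to 24 higher and 8 to 19 lower genes, of which 4 were among the 8 without replicate 1 and 6 without replicate 3. The causes were not tested. A lower class of cells with 0 Nanog UMIs was not run there, since at most 1 such cell existed per culture.

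With no replicate block the test in replicates 1 and 3 called 0 higher and 0 lower genes. For auxin, edgeR called 0 with and without the replicate block and DESeq2 with the block 2 higher and 13 lower. With the block, edgeR called 6 lower after thinning, 1 lower with all 4 plates of replicate 3, and 0 to 5 higher and 0 to 14 lower when a replicate was left out, most without replicate 2. Nr0b1, at 0.23 without the block, was −0.0759 with the block, −0.10 with DESeq2 and the block and −0.0599 with the block after thinning. Leaving out a replicate gave −0.47 (without replicate 1) to 0.40 (without replicate 3), and −0.50 without replicate 1 with the block. Nanog-high cells stayed nearer than Nanog-0 cells to replicate 1 under every setting run, by 0.0837 to 0.192 in control. In auxin the difference was 0.116 after thinning, 0.0403 at 50 CPM or more and 0.0319 against replicate 3. A count of 0 in a shallow cell allows some Nanog.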
